A study of Mus musculus with 9 samples.

Results

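The genes described here encode the nuclear-encoded subunits of the oxidative phosphorylation system. They were taken from the deposited count table by symbol: Nduf followed by a, b, c, s or v and a digit, Sdha to Sdhd, Cyc1, and symbols that begin with Uqcr, with Cox4 to Cox8 or with Atp5. This found 88 of 18138 genes, and no measured value was used. Complex I contributed 36 genes, complex II 4, complex III 9, complex IV 11 and complex V 17. A further 7 encode versions of complex IV subunits that are known from particular tissues or conditions (Cox4i2, Cox6a2, Cox6b2, Cox7a1, Cox7b2, Cox8b and Ndufa4l2), 3 are related copies (Ndufb4b, Ndufb4c and Ndufs6b), and Cox7a2l encodes a factor that joins complexes into supercomplexes. Ndufab1, the acyl carrier subunit of complex I, falls outside the symbols. The 13 subunits that mitochondrial DNA encodes were not analysed here.

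Oxidative phosphorylation is the last stage of respiration, in the inner membrane of mitochondria. Complexes I and II take electrons from NADH and succinate, complex III passes them to cytochrome c and complex IV to oxygen, while complex V, the ATP synthase, uses the proton gradient that complexes I, III and IV build. Most subunits come from nuclear genes and are imported, and neurons depend on the pathway for the ATP that restores ion gradients after firing, which is why brain tissue is sensitive to a loss of blood flow.

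Total RNA of mouse brain was sequenced in 3 groups of 3 libraries. Control mice form the first group, mice with surgery for middle cerebral artery occlusion (MCAO, a model of ischaemic stroke) the second, and mice given hypidone hydrochloride (YL-0919) at 5 mg/kg for 7 days after the same surgery the third, called hypidone below. Strain, age, sex, brain region, sham surgery, vehicle and the time after occlusion were not given in the sources used here. Nothing says that each library is a different animal, and the p-values below reflect only how much these samples vary, in part perhaps for technical reasons. A library carries its group's name and its title number.

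Library totals ran from 32075682 counts (control 4) to 37325027 (MCAO 4), and the 88 genes took between 1.19% (MCAO 5) and 1.59% (control 4) of them. Pan-neuronal markers were high in every library, with a mean log2 CPM (TMM-scaled counts relative to library size, CPM) over 8 genes of 8.87 to 9.97. MCAO 5 and control 5 stood apart from their groups. The mean log2 CPM of 8 microglia and macrophage markers reached 6.79 in MCAO 5, while MCAO 4 had 4.49 and MCAO 6 had 5.39, and the pan-neuronal mean of MCAO 5 was the lowest of the 9 at 8.87. In control 5 the mean of 6 hippocampal markers was 6.72, against at most 3.98 elsewhere, and that of 5 choroid plexus markers was 3.49, against at most 0.49.

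Per length, complex IV genes were the most abundant of the family in control tissue. FPKM (fragments scaled by gene length and library size) had a median over genes of 502.5 for complex IV, 261 for complex V and 162 for complex III. Complex II had a median of 117 FPKM, and within complex I the membrane arm had 121, the Q module, which reduces ubiquinone, 108, and the N module, which oxidises NADH, 99.2. All genes tested had a median of 5.66 FPKM. Cox4i1, a structural subunit of complex IV, was highest at 990 ± 95.0 FPKM (SD, n = 3), followed by Atp5b, the catalytic beta subunit of ATP synthase, at 728 ± 15.1 and Cox8a, one of the smallest complex IV subunits, at 682 ± 67.7. Cox5a was the lowest of the ubiquitous complex IV genes at 46.5 FPKM, and the length that its FPKM values imply, 3153 bases, is the longest among the members. The order of the highest 3 was the same in MCAO and hypidone tissue, while neighbours such as Atp5b and Cox8a differed by less than 1 control SD of Cox8a.

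**Figure D1:**
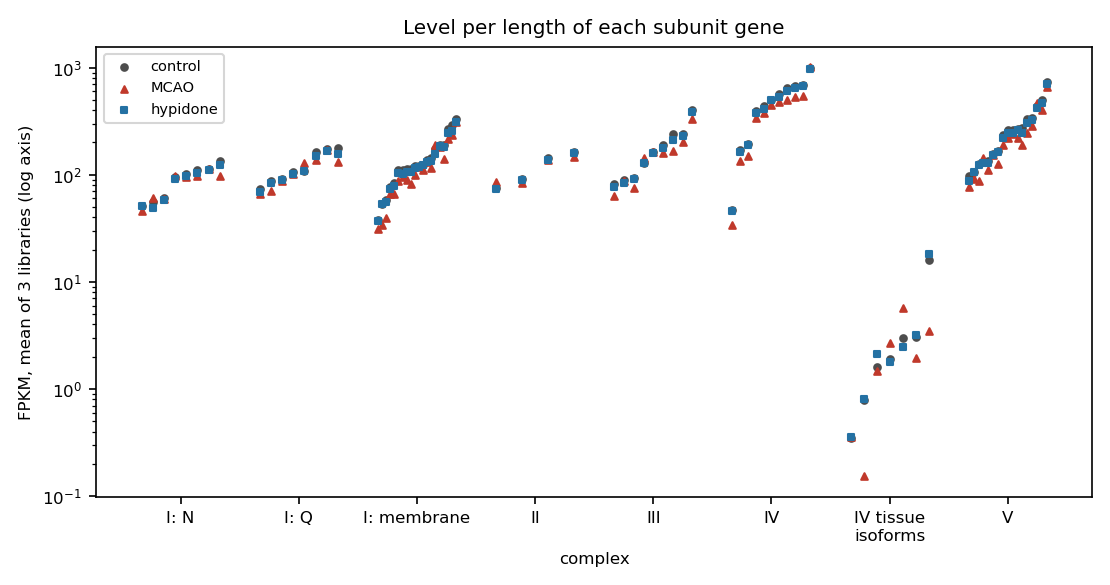
Each point is the mean FPKM of 3 libraries (log axis) for 1 subunit gene, arranged by complex and marked by group (circle control, triangle MCAO, square hypidone). Ubiquitous subunits lie between 37.9 (Ndufa11) and 990 (Cox4i1) FPKM in control, and the tissue isoforms of complex IV between 0.348 (Cox7b2) and 15.9 (Cox6a2).

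The first comparison asks what differed in these genes between MCAO and control tissue. The family was lower by a small amount across most genes, with few single genes past the test. Of 86 genes with enough counts, 9 fell and 0 rose in edgeR's quasi-likelihood test (threshold 0.05 after Benjamini-Hochberg adjustment across all genes). Over all 14756 genes tested 9.81% fell and 10.6% rose, so the share of members that fell was near the background. The median log2 fold change of the members was -0.28, against 0.01 for all genes tested, and 74 of 86 estimates lay below 0. In 39 members every MCAO library lay below every control library, where 17.0% of all genes did, and in 0 members the reverse held, where 16.5% of all genes did. At an unadjusted p under 0.05 the counts were 27 lower and 0 higher, and 5431 of the 14756 genes passed that threshold in either direction, a share no smaller than that of the members.

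Single libraries moved the count of 9. It was 0 without MCAO 6, 1 without control 4, 1 without control 6 and 3 without hypidone 7, which enters this comparison only through the joint fit. It was 14 without control 5, without MCAO 4 or without control 5 and MCAO 5 together. A fit of only MCAO and control gave 1. The median stayed between -0.35 and -0.18 over these omissions.

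The libraries of 1 group differed in size. Against the control mean, the median member was at -0.41 log2 units in MCAO 5, -0.21 in MCAO 6 and -0.14 in MCAO 4. MCAO 5 was the lowest of the 9 libraries for 60 of 86 members, and 26 members lay below all controls in MCAO 5 alone. Controls were also spread, at 0.15 (control 4), -0.13 (control 5) and -0.02 (control 6), so MCAO 4 and control 5 were alike in their median. Without MCAO 5 the count of genes that fell was 7 and the median -0.18. Pan-neuronal markers had a mean log2 CPM of 9.56 to 9.97 in control and 8.87 to 9.71 in MCAO, with 1 of 8 genes (Nefl) past the test, none of them at 0 CPM. All 8 log2 fold changes of these markers lay below 0, with a median of -0.40. Markers of other cells moved too: the mean log2 CPM of endothelial markers was 4.05 to 4.76 in control and 4.74 to 6.02 in MCAO (3 of 5 genes higher) and that of microglia and macrophage markers 4.49 to 4.71 and 4.49 to 6.79 (4 of 8 higher). Pericyte and smooth muscle markers had 3.15 to 3.84 and 3.56 to 4.74 (2 of 9 higher), and astrocyte markers 8.01 to 8.63 and 8.35 to 9.40 (1 of 6 higher). Oligodendrocyte markers had 8.00 to 9.01 and 7.85 to 8.02 (1 of 5 lower), and erythrocyte markers 2.05 to 3.04 and -0.55 to 1.72 (0 of 5 past the test). The part of these cells in the member values was not tested. In bulk tissue fewer cells of a type and less RNA per cell cannot be told apart.

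**Figure D2:**
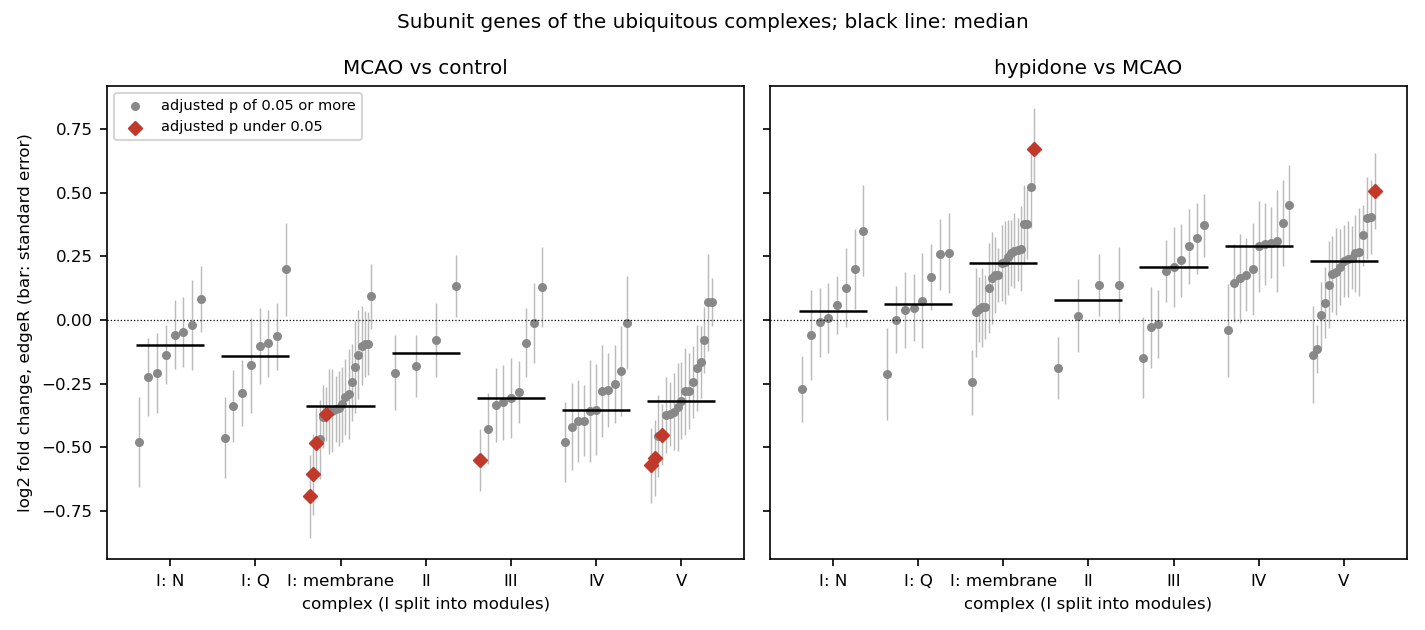
Log2 fold changes of the 77 genes of the ubiquitous complexes in MCAO against control (left) and hypidone against MCAO (right). Points are genes, bars standard errors, black lines medians, and red diamonds genes at an adjusted p under 0.05. In the left panel the medians of the complex I membrane arm and of complexes III, IV and V lie between -0.35 and -0.31, and those of the N and Q modules and complex II between -0.14 and -0.10.

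In complex I, 4 genes fell, all in the membrane arm, the part that pumps protons. Its 20 genes had a median log2 fold change of -0.34, and 13 of them did not overlap between the groups. Over all genes tested 9.81% fell and 17.0% were lower without overlap, and the counts by complex below stand beside the same shares. Ndufb2, a small accessory subunit at the far end of that arm, was at 50.3, 40.6 and 44.8 CPM in control 4, 5 and 6 and at 30.4, 25.8 and 27.7 CPM in MCAO 4, 5 and 6. Its fold change was -0.69 ± 0.16 (SE, adjusted p = 0.0204), and all MCAO libraries lay well below the controls. Ndufc1, a small accessory subunit of the same arm, was at 35.7, 26.2 and 32.2 CPM in control and 19.8, 21.9 and 20.1 CPM in MCAO, a log2 fold change of -0.61 ± 0.16 (adjusted p = 0.0295). Ndufb3 (-0.48 ± 0.14, adjusted p = 0.0375) and Ndufa3 (-0.37 ± 0.11, adjusted p = 0.0389) also fell, by less. Ndufa3 was very even within MCAO, at 79.0, 80.5 and 81.3 CPM, against 107.5, 99.5 and 104 CPM in control.

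The matrix arm of complex I holds the redox centres, and 0 of its 16 genes passed the test. The N module had a median log2 fold change of -0.10 over 8 genes and the Q module -0.14 over 8. Ndufv1, which binds NADH, had -0.02 ± 0.18, and Ndufs1, the largest iron-sulfur subunit, -0.06 ± 0.14. The lowest estimates of this arm were those of Ndufa12 at -0.48 ± 0.18 (adjusted p = 0.0850) and Ndufa5 at -0.46 ± 0.16 (adjusted p = 0.0659).

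Complex II, which also serves the citric acid cycle, had 0 of 4 genes past the test and a median log2 fold change of -0.13. Sdha, the flavoprotein, had -0.21 ± 0.15, and Sdhd, a membrane anchor, 0.14 ± 0.12. Sdha stood at 480, 498 and 449 CPM in control and at 475, 334 and 429 CPM in MCAO, so MCAO 4 lay among the controls and MCAO 5 far below them.

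Complex III had 1 of 9 genes past the test (11.1%, where 9.81% of all genes fell). Uqcr11, a small supernumerary subunit, was at 116, 100.4 and 98.4 CPM in control and at 71.0, 69.7 and 74.0 CPM in MCAO. The MCAO libraries differed little from each other, all below the controls, and the log2 fold change was -0.55 ± 0.12 (adjusted p = 0.0172). The large matrix-side proteins Uqcrc1 and Uqcrc2 had -0.01 ± 0.16 and 0.13 ± 0.16. Uqcrfs1, the Rieske iron-sulfur protein, had -0.09 ± 0.13, and cytochrome c1, encoded by Cyc1, -0.32 ± 0.15.

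Among the 11 ubiquitous complex IV genes 0 passed the test, although their median log2 fold change of -0.35 was the lowest of the complexes. Of the 11 genes 6 were lower without overlap, where 17.0% of all genes were. Cox5a had the lowest estimate, -0.48 ± 0.16 (adjusted p = 0.0581), with 167, 122 and 158 CPM in control and 118, 98.5 and 104 CPM in MCAO. Cox4i1, the most abundant per length, had -0.01 ± 0.18, and its MCAO libraries, at 865, 591 and 824 CPM, lay on both sides of the controls at 858, 694 and 746 CPM.

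Complex V had 3 of 17 genes past the test (17.65%, where 9.81% of all genes fell) and a median log2 fold change of -0.32. Atp5k, the e subunit, which helps ATP synthases pair into rows along the cristae, was at 98.4, 78.3 and 87.4 CPM in control and 58.0, 60.5 and 59.2 CPM in MCAO, a fold change of -0.57 ± 0.15 (log2, adjusted p = 0.0270). Atp5j2, the f subunit of the membrane part, was at 154, 138 and 136 CPM in control and 108, 102 and 102 CPM in MCAO (-0.45 ± 0.12, adjusted p = 0.0311). Atp5d, the delta subunit of the central stalk, was at 252, 225 and 259 CPM in control and 194, 135 and 175 CPM in MCAO (-0.54 ± 0.15, adjusted p = 0.0340). None of these 3 genes overlapped between the groups. The catalytic head did not pass the test, with -0.19 ± 0.17 for Atp5b and 0.07 ± 0.19 for Atp5a1, the alpha subunit. Atp5a1 ranged from 832 CPM (MCAO 5) to 1389 CPM (MCAO 4) around control values of 1046 to 1092 CPM.

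**Figure D3:**
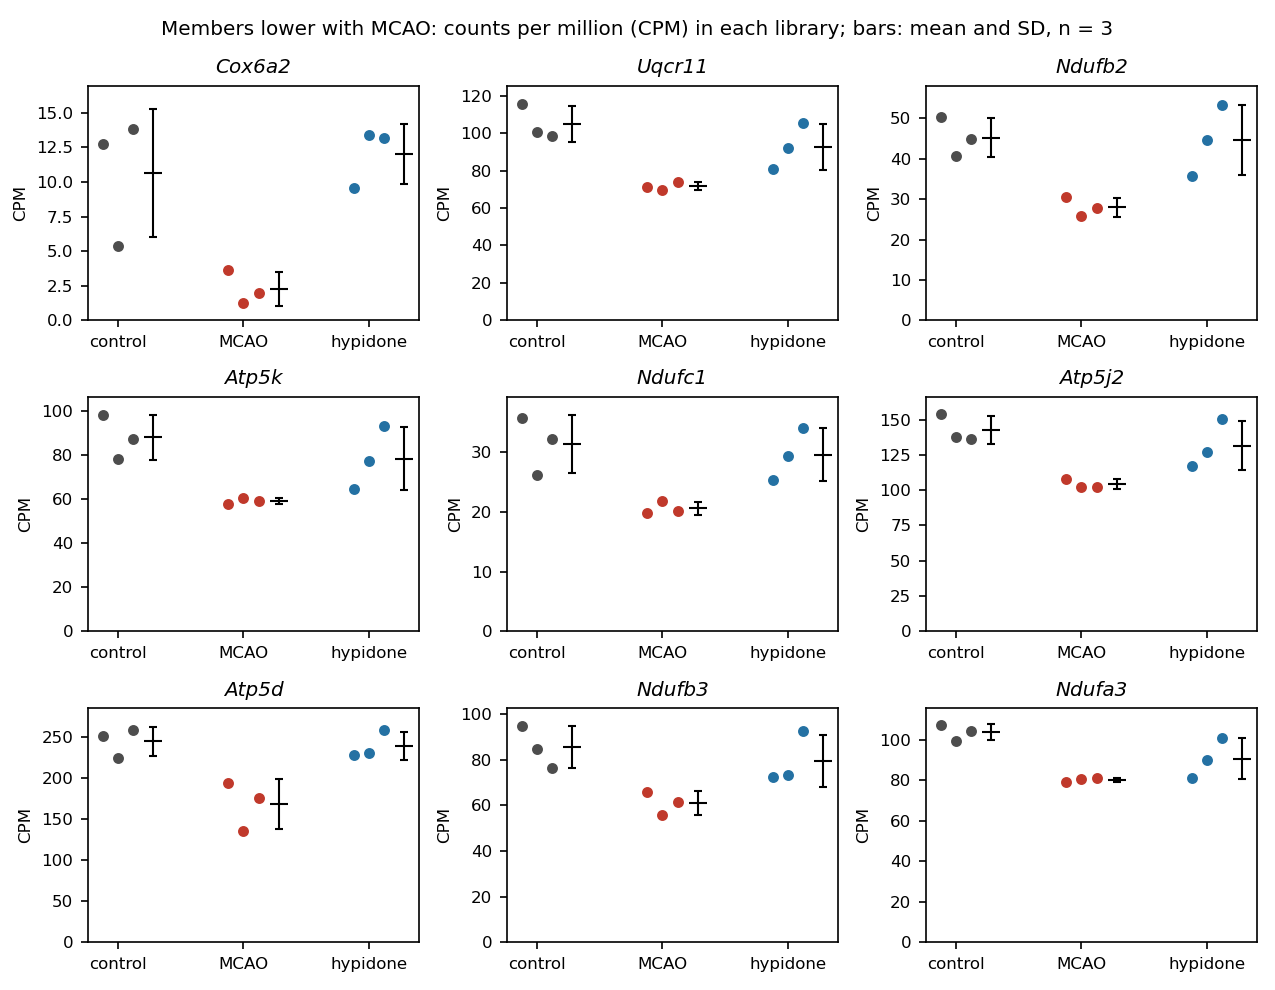
CPM of the 9 genes that fell with MCAO, 1 panel per gene, with 1 point per library in control, MCAO and hypidone tissue and the mean with its SD beside each group. In every panel the 3 MCAO points lie below the 3 control points, and hypidone points overlap the control range.

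Calls of single genes rested on few libraries. Those of Uqcr11 and Cox6a2 were each lost without 2 of the 9 libraries, that of Ndufb2 without 3, those of Atp5k and Ndufc1 without 4, that of Atp5j2 without 5, that of Atp5d without 6 and those of Ndufb3 and Ndufa3 without 7, with an adjusted p of at most 0.152 in any setting that lost a call. Libraries whose omission ended at least 1 of the calls of Uqcr11, Cox6a2 and Ndufb2 were control 4, control 6 and MCAO 6.

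The subunits of the ubiquitous complexes were also split by role. A core list held 19 genes (among them Ndufv1, Ndufv2, Ndufs1, Ndufs7, Ndufs8, the 4 Sdh genes, Cyc1, Uqcrfs1, Uqcrc1, Uqcrc2, Cox5a, Cox5b, Atp5a1, Atp5b and Atp5c1). Its name is loose: Cox5a, Cox5b, Uqcrc1 and Uqcrc2 are supernumerary subunits, and Ndufs3, a core subunit of complex I, was left with the others. Of complex V it held only Atp5a1, Atp5b and Atp5c1. The central stalk gene Atp5d, which fell, and the ring genes Atp5g1 to Atp5g3 were counted with the others. Of the 19 genes 0 fell, the median log2 fold change was -0.09, and 3 did not overlap between groups. Of the 58 other subunits of the ubiquitous complexes 8 fell, the median was -0.32 and 34 did not overlap. Against the 9.81% of all genes that fell, both counts of falls were near the background, and 17.0% of all genes were lower without overlap. With Cox5a, Cox5b, Uqcrc1 and Uqcrc2 moved out and Ndufs3 moved in, a change made after seeing the data, 0 of 16 core genes fell. Their median was -0.08 and 1 did not overlap. Of the 61 others 8 fell with a median of -0.32, and 36 did not overlap. Complex V genes were placed as before, with Atp5d among the others. In MCAO 4 and MCAO 6 the core median was at 0.06 and -0.04 log2 units from the control mean and that of the other subunits at -0.18 and -0.26. In MCAO 5 both were low, at -0.37 and -0.43. Without MCAO 5 the core median turned to 0.03 and that of the other subunits was -0.21. The difference between the lists was not tested.

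Core genes were longer, with a median of 1637 bases against 668 for the other subunits and 3652 for all genes tested. Genes outside the family with at most 600 bases (136 genes) had a median log2 fold change of 0.06, while the 31 members of that size had -0.33. Between 600 and 1200 bases the medians were -0.01 (843 other genes) and -0.28 (29 members), and between 1200 and 3000 bases 0.005 (4627) and -0.18 (25). With an offset that removes each library's trend over length, 10 members fell, the median was -0.18, and that of the 58 other subunits was -0.23.

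Promoters are shown for 4 genes of the other subunits, chosen among those that hold a motif match. The nuclear respiratory factor NRF1 and the ETS factor GABPA are textbook regulators of these genes. Whether the motifs relate to the differences was not tested. Each line gives 120 bases that lie before the RefSeq start site (GRCm38.p6) and end just after the motif match. They are on the gene's own strand, 5' to 3', with the match in capitals. Relative to the start site, the last printed base lies at -38 (Atp5k), -56 (Uqcr11), -1 (Uqcrh) and -29 (Atp5h). In the GENCODE M21 annotation, 12 of the printed bases of Atp5k, 15 of Atp5h, 1 of Uqcrh and 0 of Uqcr11 are exon. For Atp5k and Atp5h these lie at the 3' end of the line, where the motif is. Atp5k (chr5:108434437-108434556, minus strand) holds the NRF1 motif from 50 bases before the start. Uqcr11 (chr10:80406877-80406996, minus) holds the ETS motif from 66 bases before it. Uqcrh (chr4:116075071-116075190, minus) and Atp5h (chr11:115419948-115420067, minus) hold the reverse complement of the ETS motif, from 11 and 39 bases before it.
Atp5k: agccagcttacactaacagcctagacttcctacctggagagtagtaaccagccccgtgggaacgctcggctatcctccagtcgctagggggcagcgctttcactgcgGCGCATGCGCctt
Uqcr11: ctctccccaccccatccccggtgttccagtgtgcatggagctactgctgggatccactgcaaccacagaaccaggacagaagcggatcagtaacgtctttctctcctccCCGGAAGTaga
Uqcrh: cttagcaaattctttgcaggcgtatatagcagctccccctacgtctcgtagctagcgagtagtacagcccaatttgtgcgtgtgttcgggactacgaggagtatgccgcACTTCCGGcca
Atp5h: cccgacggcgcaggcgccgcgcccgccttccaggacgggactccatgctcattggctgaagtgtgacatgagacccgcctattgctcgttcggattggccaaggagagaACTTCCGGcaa
Uqcrh, the hinge protein of complex III, had a log2 fold change of -0.33 ± 0.15 and Atp5h, a subunit of the peripheral stalk of ATP synthase, -0.32 ± 0.15, neither past the test.

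Promoters of 70 of the 88 genes were matched by symbol in the RefSeq table, which covers 27025 genes with 250 bases before and 50 after each start. The NRF1 motif, whose 10 letters are the capitals in the Atp5k line, searched on both strands as all motifs were, was in 5 of the 70 (7.14%; Atp5g2, Atp5k, Cox6a1, Ndufa11 and Uqcrc1) and in 1.07% of all genes' promoters. The ETS motif CCGGAAGT was in 5 (7.14%; Atp5h, Cox8a, Ndufs3, Uqcr11 and Uqcrh) and in 4.31% of all. A motif of the factor YY1, also of 10 letters, was in 5 (7.14%; Atp5j, Ndufa9, Ndufs4, Ndufs6 and Ndufs7) and in 0.995% of all, and the ERR motif TCAAGGTCA in 2 (2.86%; Atp5g3 and Sdhd) and in 0.466%. Genes that share a motif differed in their values: of the 5 with the NRF1 motif, Atp5k fell, while Atp5g2 had a log2 fold change of 0.07 ± 0.09 and Uqcrc1 -0.01 ± 0.16. These exact matches describe the windows, and binding of a factor was not measured.

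Among the 86 members tested, the largest change was in Cox6a2. It encodes the striated muscle version of a complex IV subunit, whose general version is Cox6a1, and in brain it is known from parvalbumin interneurons. Cox6a2 was at 12.7, 5.35 and 13.9 CPM in control, at 3.64, 1.22 and 2.01 CPM in MCAO and at 9.56, 13.4 and 13.2 CPM in hypidone tissue. MCAO libraries lay below all others, and control 5 was the lowest outside MCAO. The log2 fold change with MCAO was -2.22 ± 0.46 (adjusted p = 0.0137), a call lost without control 6, without MCAO 6 and in a fit of only these groups (adjusted p of at least 0.0518). As a share of Cox6a1 and Cox6a2 in FPKM, Cox6a2 made up 2.28% ± 0.88 in control, 0.623% ± 0.226 in MCAO and 2.72% ± 0.29 in hypidone tissue (SD, n = 3). Cox6a1 itself had -0.35 ± 0.18 and did not pass the test.

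Markers of cells that express Cox6a2 were read beside it. Parvalbumin, Pvalb, was at 169.5, 45.0 and 144 CPM in control and at 100.5, 66.7 and 88.9 CPM in MCAO, so the groups overlapped (-0.49 ± 0.42, adjusted p = 0.430). Without control 5 its log2 fold change was -0.88 (adjusted p = 0.0368). Over the 5 genes of the parvalbumin interneuron list the mean log2 CPM was 4.49 to 5.51 in control and 4.04 to 5.08 in MCAO. In hypidone tissue it was 5.31 to 5.41. Of the 5 genes 1 was lower with MCAO, Tac1, at -2.22 ± 0.46. This neuropeptide gene is not specific to parvalbumin interneurons, so its fall cannot be assigned to them. Striated muscle markers had a mean of -0.79 to 0.26 in control, -0.23 to 0.15 in MCAO and -0.17 to 1.82 in hypidone tissue, over 6 of 8 genes with enough counts. Of these 0 passed the test with MCAO. Acta1 was the most abundant of them with 14.3 CPM on average in control, Ckm was at 0 in control 5 and MCAO 6, and Mb at 0 in control 6. What part these cells had in the level of Cox6a2 was not tested.

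**Figure D4:**
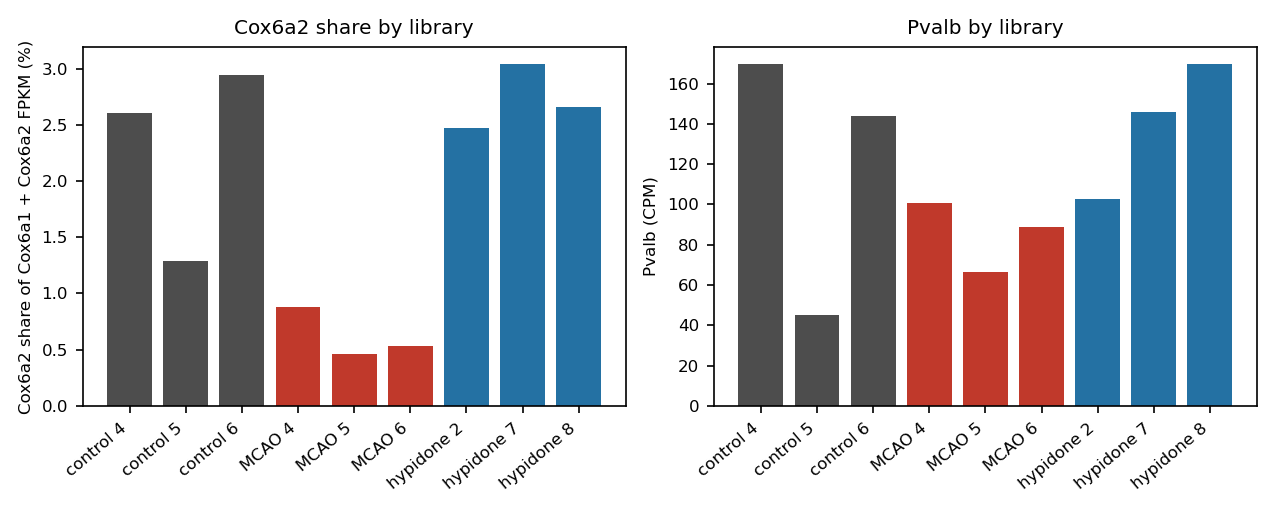
Left, the Cox6a2 share of summed Cox6a1 and Cox6a2 FPKM in each library (percent), right, Pvalb in CPM, both coloured by group. The Cox6a2 share is 0.458% to 0.881% in MCAO and 1.29% to 3.04% elsewhere, while Pvalb in MCAO (66.7 to 100.5 CPM) lies above control 5 (45.0 CPM).

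Other alternative subunits gave smaller or uneven differences, none past the test. Cox6b2, the testis version of Cox6b1, had 0.84 ± 0.59 and was at 6.25 CPM in MCAO 5 against 1.02 and 2.55 in MCAO 4 and 6. Ndufa4l2, known as a hypoxia-induced relative of Ndufa4, had 0.43 ± 0.43, from 1.09 to 2.92 CPM in control and 2.53 to 3.67 CPM in MCAO. Cox4i2, the lung and oxygen-responsive version of Cox4i1, had -0.19 ± 0.51, and Cox7a1, the muscle version of Cox7a2, -0.69 ± 0.38. Cox8b had 1 to 16 counts per library and Cox7b2 3 to 13, too few to be tested. The ring of ATP synthase is built from 1 protein encoded by Atp5g1, Atp5g2 and Atp5g3. Atp5g2 made up 26.8% ± 0.70 of their summed FPKM in control and 31.1% ± 2.87 in MCAO, with every MCAO library (28.7% to 34.3%) above every control (26.1% to 27.5%), while Atp5g1 had 19.9% ± 1.55 and 16.7% ± 1.66. An exact two-sided permutation test of 3 against 3 cannot go below p = 0.1, so no test is given for these shares.

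Assembly factors are proteins that build the complexes without staying in them. Of 43 assembly factors 18 fell and 0 rose with MCAO, with a median log2 fold change of -0.41, where 9.81% of all genes fell and 10.6% rose. Bcs1l, which inserts the Rieske protein into complex III, fell by 1.78 ± 0.21, from 21.37, 19.99 and 21.15 CPM in control to 6.26, 7.58 and 4.39 CPM in MCAO. Timmdc1, an assembly factor of the complex I membrane arm, fell by 1.39 ± 0.20, and Coa3, which stabilises nascent Cox1 protein for complex IV, fell by 1.12 ± 0.16. These 3 calls held without any single library. Tmem126b and Acad9, which act with Timmdc1 on complex I, fell by 1.25 ± 0.23 and 0.74 ± 0.13, while Surf1, a complex IV factor, had 0.02 and Atpaf1, for ATP synthase, 0.01. The count of 18 was 8 without control 4, 10 without control 6, 9 without MCAO 6 and 5 in a fit of only these groups. Mean log2 CPM of the list differed from the control mean by -0.45, -0.47 and -0.63 in MCAO 4, 5 and 6, so MCAO 5 did not stand apart here as it did for the subunits.

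Carriers that link the complexes also fell in part, 4 of 15 (26.7%) with a median of -0.15, where 9.81% of all genes fell and 10.6% rose. Cycs, the gene of cytochrome c, was at 128, 93.4 and 103 CPM in control and 66.1, 53.5 and 59.4 CPM in MCAO, a fall of 0.86 ± 0.15 on the log2 scale. Coq4, of ubiquinone synthesis, fell by 1.08 ± 0.15, and the ubiquinone enzymes Coq2 and Coq5 were the remaining genes. Without control 4, control 6 or MCAO 6 the count was 2. In the citric acid cycle 1 of 15 genes fell, Ogdh of the oxoglutarate dehydrogenase complex (-0.58 ± 0.11), and 1 rose, Idh2, the NADP-dependent isocitrate dehydrogenase (0.80 ± 0.21), with a median of -0.27. Both shares, 6.67% each, were below those of all genes. Ogdh lost its call without MCAO 6, just at the threshold, and Idh2 without control 4, control 6, MCAO 6 or hypidone 7.

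Few genes in the list of regulators passed the test. The list mixes factors of nuclear genes with genes that act inside mitochondria, such as Tfb1m. Of 13 regulators of mitochondrial gene expression 1 fell (7.69%, where 9.81% of all genes fell). This was Tfb1m, which methylates mitochondrial ribosomal RNA (-1.46 ± 0.40), a call lost without 6 of the 9 libraries. The coactivator gene Ppargc1a and the factors Nrf1 and Gabpa did not pass the test. In the list of 14 outer membrane and abundance markers only Phb, prohibitin, fell (7.14% of the list, -0.37 ± 0.11), a call lost without 8 of the 9. Cytosolic ribosomal proteins, also short and abundant, ran the other way: the median was 0.27, and 75 of 76 estimates lay above 0. In 35 of the 76 every MCAO library lay above every control library, where 16.5% of all genes did. Of the 76 genes 4 rose (among them Rps15a, Rps14 and Rpl32), a share of 5.26%, where 10.6% of all genes rose. That count was 0 without control 4, control 6 or MCAO 6, 1 without hypidone 7 or 8, 2 without control 5 and 14 without MCAO 4.

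**Figure D5:**
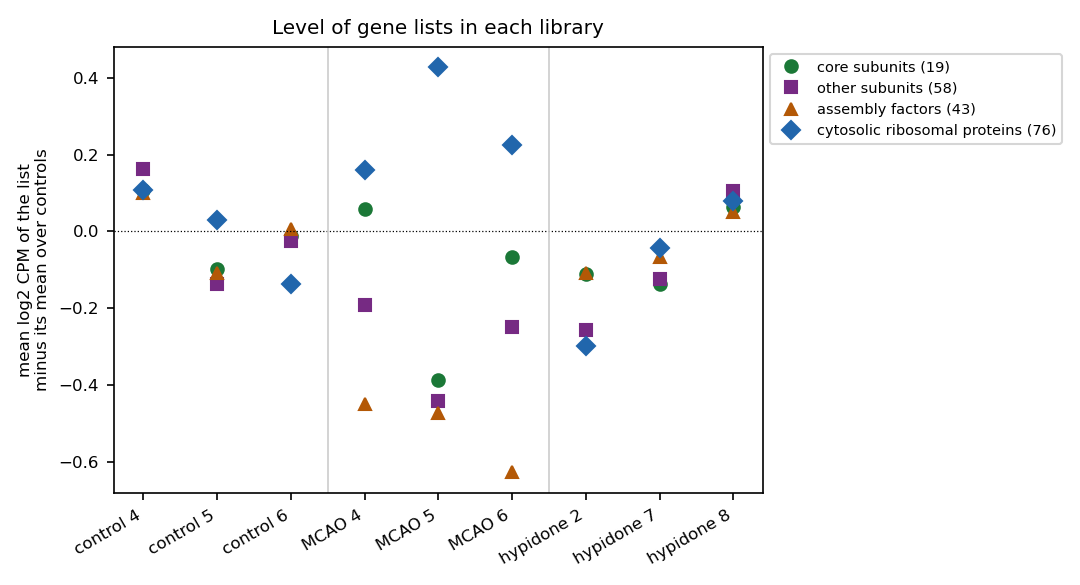
Mean log2 CPM of 4 gene lists in each library, given as the difference from the list's mean over the controls, so 0 is the control mean. Assembly factors lie between -0.63 and -0.45 in all MCAO libraries, core subunits lie below the control range in MCAO 5, hypidone 2 and hypidone 7 (at -0.39, -0.11 and -0.14), and ribosomal proteins lie between 0.16 and 0.43 in MCAO.

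The next comparison asks what differed between hypidone tissue and MCAO tissue without the drug. It uses the same MCAO libraries as the comparison above, so a level that is low in them enters both, and vehicle and time are not matched in the labels and cannot be told apart from the drug. Of 86 members 3 were higher and 0 lower, against 8.23% and 8.28% of all genes tested. The members' median log2 fold change was 0.18, against -0.04 for all genes, and 69 of 86 estimates were above 0. In 17 members every hypidone library lay above every MCAO library, where 20.9% of all genes did, and in 2, Ndufa4l2 and Atp5g2, below, where 19.0% did. None of these 4 shares exceeded the background.

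Cox6a2 rose by 2.40 ± 0.46 log2 units (adjusted p = 0.0129), Ndufb2 by 0.67 ± 0.16 (adjusted p = 0.0252) and Atp5d by 0.51 ± 0.15 (adjusted p = 0.0482). Ndufb2 was at 35.8, 44.7 and 53.3 CPM in hypidone 2, 7 and 8, all above its MCAO values. Atp5d was at 228, 230.1 and 259 CPM, against 225 to 259 CPM in the controls. The count of 3 was 0 without MCAO 6, hypidone 7 or hypidone 8 and 5 without control 5. Without any of those first 3 libraries Cox6a2 and Ndufb2 lost their calls, with an adjusted p of 0.0508 to 0.1004. Atp5d lost its call without 7 of the 9 libraries.

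Of the other genes that fell with MCAO, Ndufc1 came closest to the threshold, at 0.52 ± 0.16 (adjusted p = 0.0531), with 25.3, 29.4 and 34.1 CPM in hypidone tissue. Uqcr11 had 0.37 ± 0.12 (adjusted p = 0.0664), with 80.8, 91.8 and 105 CPM, Atp5k 0.41 ± 0.15 (0.0839 adjusted p), with 64.7, 77.5 and 93.3 CPM, and Atp5j2 0.33 ± 0.12 (adjusted p = 0.0847). Each of these had its lowest hypidone value in hypidone 2 and its highest in hypidone 8. The same libraries were lowest and highest for the median member: against the control mean the median member was at -0.22 log2 units in hypidone 2, -0.12 in hypidone 7 and 0.10 in hypidone 8. In hypidone 2, 61 of 86 members lay below all controls, in hypidone 8, 0 did. Without hypidone 8 the members' median against MCAO was 0.09, without MCAO 5 it was 0.10, and without hypidone 2 it was 0.26.

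By complex, the medians against MCAO were 0.29 for complex IV, 0.23 for complex V, 0.23 for the complex I membrane arm, 0.21 for complex III, 0.08 for complex II, 0.06 for the Q module and 0.03 for the N module. Core subunits had a median of 0.02, which was -0.10 without MCAO 5 and also turned below 0 without hypidone 8, with unscaled library totals and with the length offset. The 58 other subunits had 0.23. Markers of red cells stood apart here: all 5 rose, with a mean log2 CPM of 2.94 to 4.48 in hypidone tissue and -0.55 to 1.72 in MCAO, and Acta1 was the 1 of 6 striated muscle genes that rose (1.40 ± 0.38). Pan-neuronal markers had 2 of 8 genes higher, Nefl and Tubb3, with all 8 estimates above 0 and a median of 0.39. Their part in the members' values was not tested.

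Assembly factors had 16 of 43 genes higher and 0 lower, with a median of 0.35, where 8.23% of all genes were higher and 8.28% lower. Bcs1l was at 20.6, 16.4 and 20.2 CPM in hypidone tissue (1.65 ± 0.21 against MCAO), Timmdc1 had 1.40 ± 0.20 and Coa3 1.07 ± 0.15. The count of 16 was 4 without MCAO 6, 8 without hypidone 2, 5 without hypidone 7 and 4 without hypidone 8. Of the carriers 4 of 15 rose, Coq4 (1.03 ± 0.15), Cycs (0.81 ± 0.15), Coq5 and Coq2, and 2 did so without control 6, MCAO 6, hypidone 2 or hypidone 7 and 1 without hypidone 8. Ogdh rose by 0.55 ± 0.11 and Idh2 fell by 0.89 ± 0.21, and both calls were lost without MCAO 6 or any hypidone library. Regulators had 3 of 13 genes higher, Tfb1m (1.48 ± 0.40), the coactivator gene Ppargc1b (0.53 ± 0.14) and Polg, the mitochondrial DNA polymerase gene (0.46 ± 0.14). Of the 9 libraries, leaving out any of 6 ended the call of Tfb1m, any of 6 that of Ppargc1b and any of 7 that of Polg. Ribosomal proteins had 8 of 76 lower and a median of -0.35, and that count was 0 without MCAO 6 or any hypidone library, 20 without MCAO 4, 3 without control 6, and 5 without control 4 or MCAO 5. In 46 of the 76 every hypidone library lay below every MCAO library, where 19.0% of all genes did.

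The last comparison sets hypidone tissue against control. Of 86 members 0 were higher and 0 lower, and 0% of all genes tested were called in either direction (edgeR; DESeq2 called 1 gene in all, no member). At an unadjusted p under 0.05 there were 0 members and 131 of all genes. No member was free of overlap between the groups, where 3.86% of all genes were higher and 2.71% lower without overlap. Estimates were small and mostly on one side: 82 of 86 lay below 0 with a median log2 fold change of -0.08, against -0.01 for all genes. This lean rested on single libraries, since the median was -0.0003 without control 4, with 44 of 87 estimates below 0, and -0.01 without hypidone 2, with 49 of 87. Cox6a2 had 0.18 ± 0.44, Ndufb2 -0.02 ± 0.16, Uqcr11 -0.18 ± 0.12 and Atp5k -0.17 ± 0.15.

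Overlapping genes limit some of these values, because it is not stated whether the counting used strand. In the GENCODE M21 annotation (mm10) 83 of the 88 symbols matched 1 gene, and 28 members share exon bases with another gene. Cox6a2 (chr7:128205435-128206387) overlaps Itgad, an integrin gene on the opposite strand, which was at 0.307 CPM in control and 2.44 CPM in MCAO, opposite in direction to Cox6a2. Atp5d (chr10:80138632-80145818) overlaps Cbarp, a calcium channel regulator gene on the opposite strand, whose log2 fold change with MCAO was -1.19 ± 0.28, the same direction as Atp5d. As strand use is not known, reads in the shared bases cannot be assigned to 1 gene for this pair or the others, whatever their directions. Ndufb2 (chr6:39592574-39603382) overlaps Braf, which had 0.17 ± 0.14, and 2 further gene models that were not compared, and Ndufa3 (chr7:3617373-3620327) overlaps Tfpt, which had 0.32 ± 0.13. Uqcr11 (chr10:80402997-80406830), Atp5k (chr5:108433244-108434448), Ndufc1 (chr3:51404677-51408988), Ndufb3 (chr1:58586384-58595964) and Atp5j2 (chr5:145183698-145192062) share exon bases with no other annotated gene. The related copies Ndufb4b, Ndufb4c and Ndufs6b can share reads with Ndufb4 and Ndufs6, and their values are uncertain.

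According to the authors' deposited table, 12 members had a q-value under 0.05 and a lower level for MCAO against control and 0 a higher one, and these 12 include the 9 given above. The other 3 in the authors' deposited table were Atp5e, Cox6b1 and Uqcrq. For hypidone against MCAO the authors' deposited table had 5 members higher and 0 lower, Cox6a2, Ndufb2 and Atp5d beside Cox5a and Ndufc1.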

How the data were processed

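RNA-seq of 9 mouse brain libraries was analysed from gene tables. The authors deposited raw read counts for gene symbols. The deposited FPKM values equal each count over a fixed gene length and the library total. The authors' own comparisons came as a deposited table of fold ratios with p-values and q-values. Per the submitters' processing notes, the build was mm10 and DESeq2 was used. Aligner, counter and strand use were not given in the sources used here.

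Members, gene lists and tests were chosen with earlier results of these data known. Genes were kept with edgeR's filterByExpr (14756 of 18138, and 86 of 88 members, Cox7b2 and Cox8b being too low). All 9 libraries entered 1 TMM-scaled quasi-likelihood fit (edgeR 4.0.16, R 4.3.3, 6 residual degrees of freedom), with two-sided F tests and Benjamini-Hochberg adjustment over all genes at 0.05. Each standard error is |log2 fold change| over the square root of F. Log2 CPM used a prior count of 2. The fit was tested on simulated data. Genes named were the 6 called members with the lowest p per direction, isoform groups, core subunits, the 3 called genes with the lowest p per pathway list, and the extremes of level. Ndufb3, Ndufa3, Tmem126b, Acad9, Surf1, Atpaf1 and other genes beyond this were named after their values were seen. Alternatives were other scalings, filters, tools (DESeq2 1.42.0, limma 3.58.1) and sets of libraries. Some single-gene results are not reported here.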

Additional observations from a re-analysis of the deposited data

How the results depend on the processing

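Direction held for the members' median in all 3 comparisons under every alternative for which it was computed. It also held for every called member, and for the called pathway genes followed over settings, at most 3 per list and comparison. Other called genes were not followed. The count of members that fell with MCAO was 9 and became 17 with DESeq2, 33 with limma voom and quality weights, 1 in a fit of only the groups compared and 14 without control 5 and MCAO 5 together, an alternative chosen after seeing the data. Leaving out each library gave 0 to 14. For hypidone against MCAO the count of 3 higher members became 7 with the length offset, 7 with DESeq2 and 20 with voom, and 0 to 5 with a library left out. The count of 0 lower became 3 with voom (Ndufc2, Ndufs3 and Ndufv3), 1 without control 5 and MCAO 5 together (Ndufs3) and 0 to 1 with a library left out (Cox6b2 without MCAO 4). The causes of these shifts were not tested, and some of these fits also hold fewer libraries. Control and MCAO share title numbers, and with the replicate block the count of 9 became 0, as it did for all genes. The numbers were not taken to pair samples, because the labels do not say that they do. Deviations of same-numbered libraries from their group means correlated at 0.12, 0.12 and -0.04, and those of differently numbered ones at -0.15 to 0.12. These few values cannot decide whether samples were paired. The 43 assembly factors gave 0 to 27 lower over all settings. Depth kept Cox7b2 and Cox8b from being tested, and few counts also limit Ndufb4c (10 to 39 per library), Cox4i2 (24 to 69) and Cox7a1 (25 to 62).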
